A study of Mus musculus with 12 samples.

Results

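The regions described here are the far contacts of an enhancer of Mycn, the gene of the N-Myc transcription factor, on mouse chromosome 12 (build mm10). They are the windows of the enhancer's circular chromosome conformation capture (4C-seq) table whose centre lies more than 1 Mb from the centre of the viewpoint window (12786001 to 12796000) on either side. 5444 of the 7348 windows of this table met that rule (74.1%), and the 3 tables of the series hold 17305 windows in all. 2310 of the 5444 lay on the lower-coordinate side, out to 9540 kb, near the end of the chromosome, and 3134 on the higher-coordinate side, out to 106087 kb. Windows are 10 kb long and step by 1 kb, so neighbours share most of their counts. Bin values, shares and counts of listed windows in a bin or stretch therefore rest on 528 far windows that do not overlap. They are pooled in bins of 100 kb or 1 Mb that are numbered outward from the viewpoint. Runs of listed windows, the occupancy of the 5444 windows and settings that name other tilings also use windows outside this set.

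4C-seq fixes chromatin with formaldehyde, cuts and ligates it, and counts the fragments that were joined to one chosen viewpoint. Contacts fall steeply with distance along a chromosome, and those far beyond the domain of a viewpoint are known to reflect how whole chromosome segments, rich or poor in genes, are folded together. Mycn is active in pluripotent and progenitor cells, where its protein drives growth and division.

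The table holds 4 libraries, 2 from each of 2 cell types. The embryonic stem (ES) cells were of the V6.5 mouse line, grown in 2i, a medium with inhibitors of 2 kinases that holds them in a naive pluripotent state. The mouse embryonic fibroblasts (MEFs) came from rtTA3-OKSM embryos of embryonic day E13.5, which carried 1 copy each of the Oct4-GFP reporter, of the OKSM cassette of 4 reprogramming factors and of the rtTA3 activator, and were grown in DMEM in low oxygen; the labels name no induction of the cassette for them. The labels do not say how many embryos were used or whether the 2 libraries of a cell type came from separate cultures, so tests measure the spread between libraries, which may be technical. 4C-seq holds no expression, so the cell types could not be checked against marker genes. The series asks how enhancer contacts differ between pluripotent cells and fibroblasts, and the comparison here is how far the Mycn enhancer reached, and to what, in each.

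The 2 far bins of 100 kb with the highest mean over the 4 libraries lie over the genes Msgn1, Gen1, Smc6 and Vsnl1, about 1.5 Mb from the viewpoint. Msgn1 encodes a transcription factor of presomitic mesoderm, Gen1 a nuclease that resolves DNA junctions, Smc6 a subunit of the SMC5/6 genome maintenance complex, and Vsnl1 a neuronal calcium sensor. The first 3 of these genes start inside the second of these bins, and their promoters (RefSeq, GRCm38.p6, 250 bases before to 50 bases after the start) are shown because the bins are read by the ligation of fragments cut at GATC, the DpnII site, printed in capitals.

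Gen1 promoter, minus strand, chr12:11265758-11266057: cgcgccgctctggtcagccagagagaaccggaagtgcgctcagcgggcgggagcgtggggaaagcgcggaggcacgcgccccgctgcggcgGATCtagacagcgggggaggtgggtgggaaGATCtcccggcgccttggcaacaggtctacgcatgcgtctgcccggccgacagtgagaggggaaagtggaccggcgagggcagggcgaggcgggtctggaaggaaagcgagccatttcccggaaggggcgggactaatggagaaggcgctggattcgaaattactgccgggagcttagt
Smc6 promoter, plus strand, chr12:11265636-11265935: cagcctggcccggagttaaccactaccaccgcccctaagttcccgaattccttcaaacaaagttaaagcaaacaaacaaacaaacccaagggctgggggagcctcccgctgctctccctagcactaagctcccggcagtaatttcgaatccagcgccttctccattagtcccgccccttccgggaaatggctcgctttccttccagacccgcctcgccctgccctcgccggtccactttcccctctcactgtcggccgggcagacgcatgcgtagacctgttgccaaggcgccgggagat
Msgn1 promoter, minus strand, chr12:11208899-11209198: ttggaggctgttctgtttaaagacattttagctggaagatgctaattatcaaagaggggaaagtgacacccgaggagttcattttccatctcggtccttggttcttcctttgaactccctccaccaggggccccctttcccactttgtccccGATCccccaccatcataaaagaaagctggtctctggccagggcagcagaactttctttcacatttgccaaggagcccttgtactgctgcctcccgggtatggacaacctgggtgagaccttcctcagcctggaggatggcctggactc

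GATC reads the same on both strands. It occurs 2 times in the Gen1 promoter, 0 times in the Smc6 promoter and 1 time in the Msgn1 promoter, and 48.0% of the 32851 promoters of the table hold it. The Gen1 and Smc6 promoters face away from each other and share 178 bases, so these promoters cannot be told apart at the resolution of a window. Vsnl1 starts at a higher coordinate, in the next bin towards the viewpoint, and its 3' part lies in the highest bin.

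Depth set how firmly the far values can be read. The library totals, recovered from the values, were 88038 and 27290 counts for ES replicates 1 and 2, and 16774 and 59424 for MEF replicates 1 and 2. The far windows took 7942, 2263, 1701 and 5089 of these counts. A window was listed only where at least 3 of the 4 libraries had counts: 28.3% of the 5444 far windows had counts in all 4, against 86.3% of the 1904 windows within 1 Mb. A contact made in 1 cell type alone could thus not appear. ES replicate 1, the deepest library, had 0 counts in 96 of the 528 far windows and 18.4 counts in each of the others on average, while ES replicate 2 had 0 in 72 and 4.96 in the others. MEF replicates 1 and 2 had 0 in 141 and 64 windows. The part of this uneven occupancy in the results was not tested, and counts are PCR products with no molecular identifier, so they are not independent molecules.

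The share of counts in listed windows beyond 1 Mb overlapped between the cell types. Near and far listed windows without overlap held 76.3% and 75.9% of the library totals in ES and 75.1% and 74.8% in MEF. Where the other counts lay is not known, so far contacts outside listed windows are missed. The far share of the library total was 9.02% and 8.29% in the ES libraries and 10.1% and 8.56% in the MEF libraries. The groups overlapped, with means of 8.66% ± 0.52 (SD, n = 2) in ES and 9.35% ± 1.12 (SD, n = 2) in MEF (two-sided exact permutation test, p = 0.667). With 2 libraries against 2 this exact permutation test cannot go below p = 0.333, so no share can pass a threshold of 0.05.

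Most far counts lay within 5 Mb. At 1 to 5 Mb the ES libraries held 6.98% and 6.72% of their totals and the MEF libraries 7.58% and 6.84%. Beyond 5 Mb they held 2.04% and 1.58%, and 2.56% and 1.72%. The part of the far counts that lay beyond 5 Mb was 22.7% and 19.0% in ES and 25.3% and 20.1% in MEF, with overlapping groups (two-sided exact permutation test, p = 0.667 for each of these 3 shares). MEF replicate 1, the shallowest library, was the highest in all of them. Without it, ES was the higher by 0.093 percentage points beyond 1 Mb, 0.0026 at 1 to 5 Mb, 0.090 beyond 5 Mb and 0.75 in the part beyond 5 Mb, so the direction of these differences rests on that library.

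**Figure D1:**
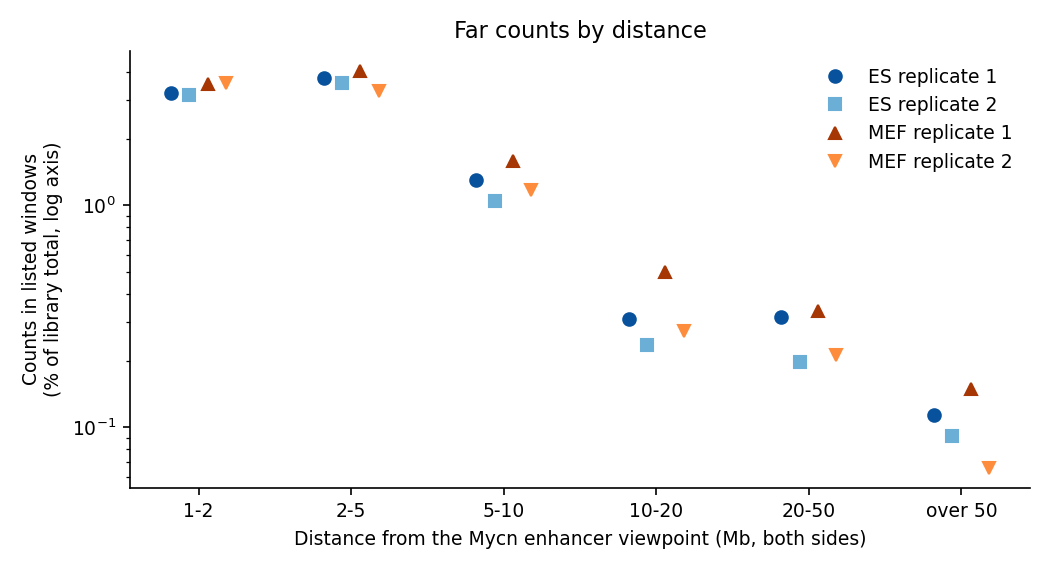
Share of the library total in listed windows, in percent on a log axis, against distance from the viewpoint in Mb, both sides together; each point is 1 library. All 4 libraries lie between 3.15% and 4.05% at 1 to 5 Mb in each class and at or below 0.149% beyond 50 Mb, and the cell types overlap in every class except 1 to 2 Mb.

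Counts fell in steps and not evenly, and the steps differed by side. On the lower-coordinate side the bin at 1 to 2 Mb held 23.0 and 24.6 counts per 1000 of the library total in ES and 21.7 and 22.9 in MEF. The next bin, at 2 to 3 Mb, held 3.54 and 4.76 in ES and 7.27 and 6.02 in MEF. On the higher-coordinate side the decline was slow out to 5 Mb and then abrupt: the bin at 4 to 5 Mb held 6.80, 5.64, 5.13 and 5.72 in the order ES 1, ES 2, MEF 1, MEF 2, and the bin at 5 to 6 Mb held 1.33, 1.21, 2.80 and 1.35. In that order too, 10 to 20 Mb held 0.308%, 0.235%, 0.501% and 0.273% of the totals, and the region beyond 50 Mb 0.114%, 0.0916%, 0.149% and 0.0656%. Listed windows thinned likewise on the higher side, from 48.8% of the possible windows at 1 to 5 Mb to 8.2% at 5 to 10 Mb, 3.1% at 10 to 20 Mb and 0.867% at 20 to 50 Mb.

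A stretch of the lower side had few listed windows, and these held few counts in every library. Chosen after its values were seen, it spans 2.6 to 3.2 Mb from the viewpoint (chr12, 9586001 to 10186000), between the bins of Osr1, a transcription factor of early kidney and limb mesenchyme, and Nt5c1b, a nucleotidase. Only 7 of its 60 possible windows were listed, with 42 and 5 counts in the ES libraries and 18 and 14 in the MEF libraries. The same distances on the higher side had 30 of 60 windows listed, with 330, 105, 65 and 256 counts in the same order. Farther out, at 3.5 to 4 Mb on the lower side, values rose again to 4.02 and 4.51 per 1000 in ES and 3.28 and 3.45 in MEF. In an unlisted window fewer than 3 libraries had counts, so single libraries may hold counts there that are not seen. Whether fragments in the stretch could be mapped was not tested.

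The sides divided differently between the cell types close to the 1 Mb limit. At 1 to 2 Mb on the higher side the ES libraries held 0.908% and 0.6999% of their totals and the MEF libraries 1.35% and 1.26%, with no overlap. On the lower side they held 2.30% and 2.46%, and 2.17% and 2.29%, which also did not overlap but differed little. The ratio of lower to higher counts there was 2.54 and 3.51 in ES against 1.60 and 1.81 in MEF, a difference of 0.81 on the log2 scale (two-sided exact permutation test, p = 0.333, the smallest possible). At 2 to 5 Mb the ratios were 0.505 and 0.764 in ES and 0.726 and 0.729 in MEF and overlapped. Over all far counts the lower side held 48.5% and 54.8% in ES and 44.9% and 50.6% in MEF, also overlapping (p = 0.667, same exact test). Pooled in 1 Mb bins and tested with limma on log2(value + 0.1), the higher-side bin at 1 to 2 Mb held 9.08 and 6.999 per 1000 in ES and 13.53 and 12.62 in MEF. Its log2 difference, ES minus MEF, was -0.71 (SE 0.29), and its limma adjusted p of 0.160 did not pass 0.05. That bin holds few genes, among them Lratd1.

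No 1 Mb bin beyond 1 Mb was called by limma. Over the whole chromosome 29 bins of 1 Mb had a mean of at least 0.2 counts per 1000 and were tested, and 2 were called at an adjusted p under 0.05 (6.90%), both within 1 Mb. Of the 27 beyond 1 Mb, 0 were called, 2 had an unadjusted limma p under 0.05, and edgeR without and with TMM scaling and DESeq2 called 0 as well. The highest bin on the lower side at 5 to 20 Mb, over Klhl29, Atad2b and Ubxn2a, held 2.66 and 2.24 per 1000 in ES and 1.25 and 2.31 in MEF. The highest on the higher side, 6 to 7 Mb away and with only Gm gene models among its widest genes, held 0.772 and 1.58 in ES and 2.74 and 2.04 in MEF. The highest beyond 20 Mb, over Atxn7l1, Cdhr3 and Nampt, rested on 3 windows with 24 and 1 counts in ES and 8 and 37 in MEF.

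At 100 kb, 2 far bins differed between the cell types, 1 in each direction. Over the chromosome 124 bins of 100 kb were tested and 14 were called (11.3%), 3 with ES higher (2.42%) and 11 with MEF higher (8.87%). Beyond 1 Mb 104 bins were tested, out of 202 with a listed window, and 2 were called (1.92%), a share below that of the whole table. Leaving out 1 library moved this count: it was 1 when either ES library was left out, 3 when MEF replicate 1 was and 9 when MEF replicate 2 was. Scaling moved the split by direction: the 4 calls of edgeR with TMM and the 2 of DESeq2 all had ES higher, as did 4 of 5 after centring on the median. The median log2 difference was -0.32 over the 104 far bins and -0.33 over all 124, with MEF the higher. The median SE was 0.66 for the 70 tested bins at 1 to 5 Mb and 1.05 for the 34 beyond 5 Mb. Beyond 5 Mb 0 bins were called by limma or edgeR, 3 had an unadjusted limma p under 0.05, and the smallest adjusted limma p was 0.102. DESeq2 gave these bins no adjusted p.

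**Figure D2:**
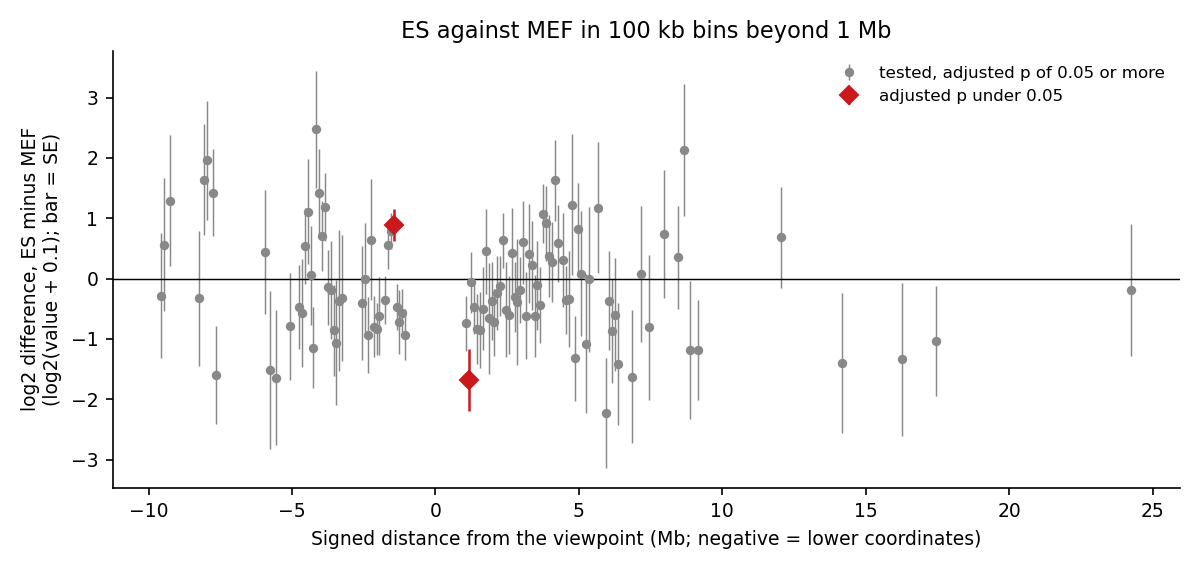
Difference ES minus MEF on the log2(value + 0.1) scale, with its SE as a bar, against signed distance from the viewpoint in Mb, for each of the 104 tested 100 kb bins beyond 1 Mb. The 2 called bins, in red, lie at 1455 kb on the lower side, where ES was higher, and at 1155 kb on the higher side, where MEF was higher, and the bars widen with distance.

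The far bin with ES higher was also the highest far bin of every library. It covers 11286001 to 11386000 of chromosome 12, 1455 kb below the viewpoint, with the 3' parts of Smc6 and Vsnl1 and the microRNA gene Mir7675. It held 6.53 and 7.29 counts per 1000 in the ES libraries (575 and 199 counts) and 3.76 and 3.60 in the MEF libraries (63 and 214 counts). Both ES libraries lay above both MEF libraries, as in 22 of the 104 tested far bins, with the reverse in 28. The ES mean of 6.91 ± 0.54 (SD, n = 2) was 1.88 times the MEF mean of 3.68 ± 0.11 (SD, n = 2), and limma gave a log2 difference of 0.89 (SE 0.27) with an adjusted p of 0.01004. With 1 ES library left out the spread came from the MEF libraries alone and the call was lost, at a log2 difference of 0.97 without ES replicate 1 (limma adjusted p = 0.290) and 0.81 without ES replicate 2 (0.389). It was also lost after quantile normalization (0.125) and without the intensity trend (0.333), and the adjusted p over all alternatives ranged from 0.000967 to 0.389.

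The neighbouring bin, 11186001 to 11286000, carries Msgn1, Gen1 and the start of Smc6. It also had both ES libraries above both MEF libraries and is another of the 22 such bins among the 104 tested. It held 5.85 and 5.20 per 1000 in ES (515 and 142 counts) and 2.98 and 3.33 in MEF (50 and 198 counts). Its log2 difference was 0.79 (SE 0.29), and its limma adjusted p of 0.0610 missed the threshold, with 0.000689 to 0.508 over the alternatives. It passed in 11 of them, among them windows shifted by 5 kb (adjusted p = 0.00709).

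Pooled, these 2 bins held 12.4 and 12.5 counts per 1000 in ES and 6.74 and 6.93 in MEF. They made up 13.7% and 15.1% of all counts beyond 1 Mb in ES, and 6.64% and 8.10% in MEF. Of the lower-side counts at 1 to 2 Mb they made up 53.8% and 50.9% in ES and 31.0% and 30.3% in MEF. The other 8 bins of that Mb went the other way in sum, with 10.6 and 12.1 per 1000 in ES and 15.0 and 16.0 in MEF. The near equal totals of the lower side at 1 to 2 Mb thus held 2 bins with ES higher and a remainder with MEF higher. The MEF mean was the higher in 7 of those 8 bins, and the exception was the bin of Kcns3 next to the stretch. Without the 2 bins the share beyond 1 Mb was 7.78% and 7.04% in ES and 9.47% and 7.87% in MEF, and the groups no longer overlapped (two-sided exact permutation test, p = 0.333). The 2 bins were picked for their level and difference, so these sums are a description.

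**Figure D3:**
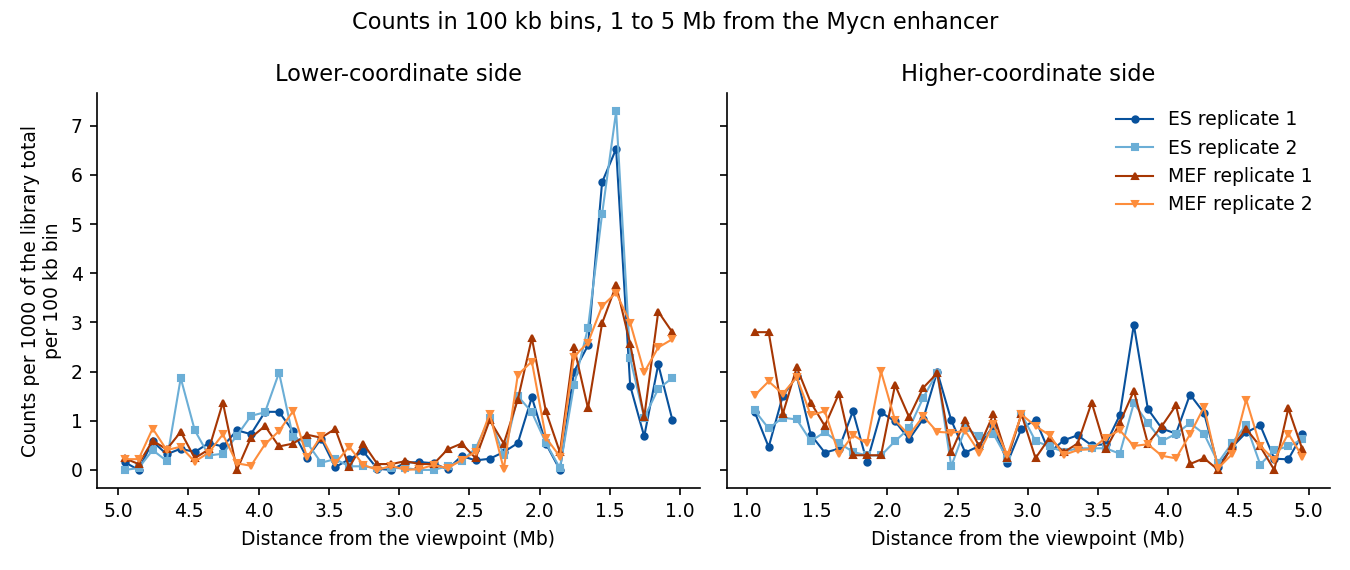
Counts per 1000 of the library total in each 100 kb bin at 1 to 5 Mb, against distance from the viewpoint in Mb, with the lower side on the left and the higher side on the right; each line is 1 library. The peak of 6.53 and 7.29 in the ES libraries lies at 1455 kb on the lower side. Values near 0, from the few listed windows, follow between 2.6 and 3.2 Mb.

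The excess of the ES libraries was not held by a single window, and the windows that showed it lay mostly over Gen1 and Smc6. In the window of Msgn1, 11206001 to 11216000, the groups overlapped, with 0.307 and 0.403 per 1000 in ES and 0 and 1.03 in MEF. Of the 10 windows of the bin over Smc6 and Vsnl1, 5 had both ES libraries above both MEF libraries and 0 the reverse. Of the 9 of the bin over Msgn1 and Gen1, 4 had ES above and 0 the reverse. These bins were picked for their level and difference in the same libraries. More windows with ES above than elsewhere are therefore built in by that choice. The comparison with the other windows is a description and not a separate test of the excess. Among all 528 far windows 98 (18.6%) had ES above and 103 (19.5%) MEF above, and among the 721 that tile the whole table it was ES above in 127 (17.6%) and MEF above in 168 (23.3%). In the body of Smc6, 1490 kb away, the window from 11296001 to 11306000 held 1.09 and 0.989 per 1000 in ES and 0.0596 and 0.286 in MEF. The window with the starts of Gen1 and Smc6, 11256001 to 11266000, held 0.670 and 0.476 in ES and 0.238 and 0.0337 in MEF. Over Vsnl1 the order varied from window to window. At 1430 kb the window held 0.2499 and 0.7329 in ES and 0.715 and 0.724 in MEF. At 1370 kb it was 0.307 and 0.440 in ES and 0.179 and 0.0168 in MEF. The window with the start of Vsnl1, at 1350 kb, held 0.0114 and 0.183 in ES and 0.358 and 0.421 in MEF. Of the 8 windows of the bin with that start, 1 had ES above and 2 had MEF above.

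**Figure D4:**
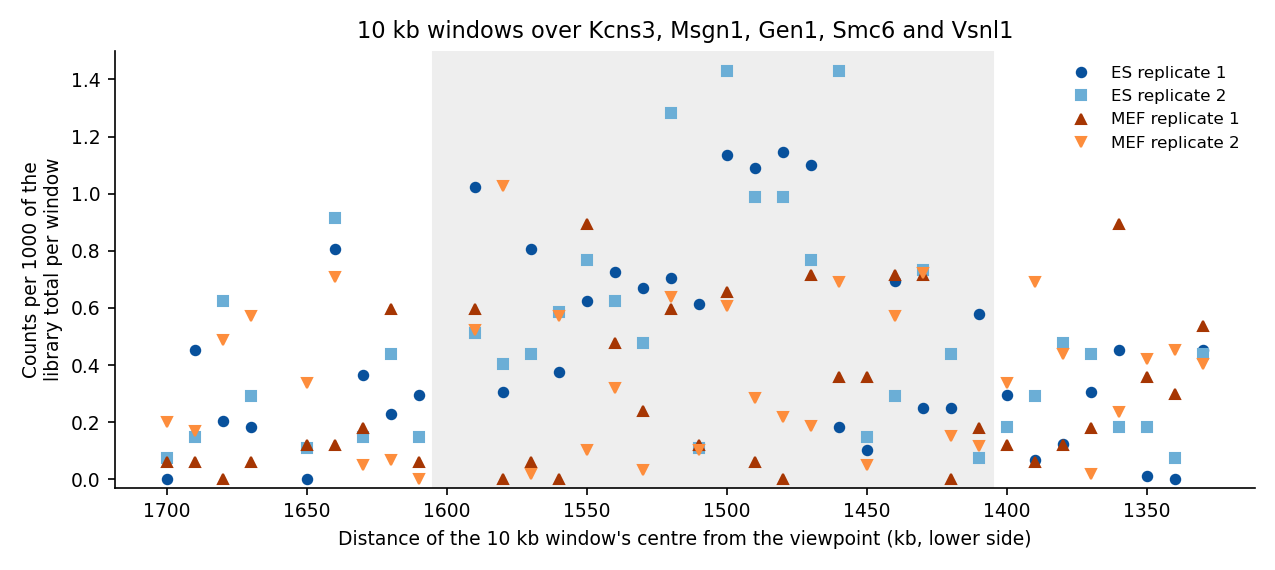
Counts per 1000 of the library total in each 10 kb window that does not overlap another, against the distance of its centre below the viewpoint in kb, over Kcns3, Msgn1, Gen1, Smc6 and Vsnl1; each point is 1 library and the 2 bins with the highest far values are shaded. The ES libraries lie above the MEF libraries in 9 of the 19 shaded windows, and mix with them on both sides.

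The longest unbroken far contact also lay here. In a run of listed windows, each step of 1 kb had counts in at least 3 libraries within its window. The longest far run spanned 285 kb, from 11189001 to 11474000, over Msgn1, Gen1, Smc6 and Vsnl1. It held 14.1 and 14.8 per 1000 in ES and 9.30 and 9.93 in MEF. The next longest, 77 kb over Kcns3, the gene of a potassium channel subunit, held 1.85 and 1.72 in ES and 1.97 and 2.20 in MEF. Of the far runs, 68.1% at 1 to 5 Mb, 92.9% at 5 to 20 Mb and 98.8% beyond 20 Mb were shorter than 10 windows.

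The far bin with MEF higher holds no gene of the RefSeq table. It covers 13896001 to 13996000, 1155 kb above the viewpoint. It held 0.466 and 0.843 counts per 1000 in ES (41 and 23 counts) and 2.80 and 1.80 in MEF (47 and 107 counts). The groups did not overlap, as in 28 of the 104 tested far bins with MEF above and 22 with ES above. The MEF mean was 3.52 times the ES mean, and limma gave a log2 difference of -1.69 (SE 0.51) with an adjusted p of 0.0114. MEF was above ES in 3 of its 6 windows (50%) and below it in 1 (16.7%), against 19.5% and 18.6% of the 528 far windows. The bin was picked for its difference in the same libraries, so more windows with MEF above are built in by that choice. The call was lost in 8 alternatives, among them only windows with counts in all 4 libraries (limma adjusted p = 0.651), without ES replicate 1 (0.308), without MEF replicate 1 (0.119), edgeR with TMM (0.0868) and DESeq2 (0.0704), over a range of 0.00287 to 0.651.

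Gene-rich segments held fewer counts per Mb than gene-poor ones at 1 to 5 Mb in all 4 libraries. They held more beyond 20 Mb in all 4, and at 5 to 20 Mb in all except MEF replicate 1. The 1 Mb bin centred 9505 kb below the viewpoint, with 19 genes, was left out of this comparison. The other far bins of 1 Mb, out to the farthest listed windows, were split at the median of 15 genes of the RefSeq table. Of these bins, 55 lay above it and 59 at or below it. Over all of them the log2 ratio of counts per Mb in gene-rich over gene-poor bins was -0.99 and -1.06 in ES and -1.43 and -1.40 in MEF, without overlap (two-sided exact permutation test, p = 0.333, the smallest possible). Most of these counts lie in the bins at 1 to 5 Mb, of which 3 are gene-rich, and the 2 nearest, with 13 and 6 genes, are gene-poor. With only the windows that had counts in all 4 libraries, the difference of 0.39 between ES and MEF turned to -0.26, and it was 0.91 with 100 kb bins and 0.73 with the bins of middling gene number left out.

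Farther out the ratio turned. At 5 to 20 Mb it was 1.31 and 0.97 on the log2 scale in ES and -0.11 and 0.49 in MEF, and beyond 20 Mb 1.10 and 1.08 in ES and 0.66 and 0.44 in MEF. The ES libraries lay above the MEF libraries in both ranges (two-sided exact permutation test, p = 0.333 in each). At 5 to 20 Mb the gene-rich bins were alike, with 1.19 and 0.879 counts per 1000 per Mb in ES and 0.969 and 0.873 in MEF. The gene-poor bins held 0.480 and 0.450 in ES and 1.05 and 0.623 in MEF, with no overlap. One of the 11 gene-poor bins there is the bin 6 to 7 Mb above the viewpoint described above, with 14 genes. Beyond 20 Mb these ratios rest on few counts: MEF replicate 1 had 56 at 20 to 50 Mb and 25 beyond 50 Mb.

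**Figure D5:**
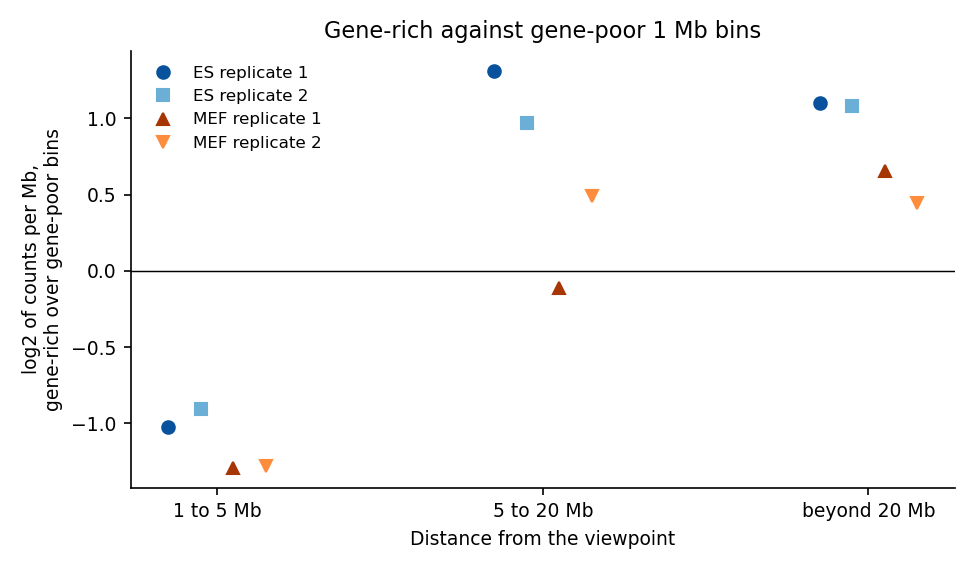
Log2 ratio of counts per Mb in gene-rich over gene-poor 1 Mb bins against the distance class, with 1 point per library. The ratios lie below 0 at 1 to 5 Mb, and beyond it the ES points, at 0.97 to 1.31, lie above the MEF points, at -0.11 to 0.66.

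Recurrent far contacts, defined as 100 kb bins in the top 10% of their distance class in each of the 4 libraries, were 2 of 80 at 1 to 5 Mb, 0 of 84 at 5 to 20 Mb and 0 of 38 beyond 20 Mb. The 2 were the bins over Msgn1, Gen1, Smc6 and Vsnl1, with ranks 1 in all libraries and 2, 2, 3 and 2. At the top 20% there were 7, all at 1 to 5 Mb and 6 of them on the lower side. Kcns3 ranked 4, 3, 21 and 5 and missed the 20% limit in MEF replicate 1 alone.

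The libraries ranked the bins less alike beyond 5 Mb. Over the 80 bins with listed windows at 1 to 5 Mb the Pearson correlation of log2 values was 0.78 between the ES libraries, 0.69 between the MEF libraries and 0.60 to 0.72 across cell types. Over the 84 at 5 to 20 Mb it was 0.34, 0.19 and -0.07 to 0.19. Over the 38 beyond 20 Mb it was 0.50 between the ES libraries, -0.16 between the MEF libraries and -0.25 to -0.05 across cell types. Bins share their library's depth and the rule that 3 of 4 libraries have counts, so these are descriptions. The bin with the best lowest rank at 5 to 20 Mb, 9155 kb above the viewpoint over the gene models Gm9282 and Gm40856, ranked 20, 19, 5 and 5 of 84 with 24, 5, 13 and 31 counts.

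Of 29 named genes at 1 to 5 Mb, all lay in a 100 kb bin with listed windows, 28 in tested bins and 2, Smc6 and Vsnl1, in a called bin, which they share. That is 1 of their 22 tested bins, against 2 of the 70 tested bins at 1 to 5 Mb and 11.3% of the whole table. The median log2 difference over their 22 tested bins was 0.47, against -0.31 over the 70 at 1 to 5 Mb and -0.33 over all 124. The list was chosen with earlier results of these data known. Bins of the 1 to 5 Mb range that hold any gene had a median of -0.13 over 53 tested bins, and those without a gene -0.61 over 17, a split made after values were seen. Lpin1, a phosphatidate phosphatase of lipid synthesis, had its midpoint in the highest bin of the higher side beyond 3 Mb. That bin held 2.95 and 1.36 per 1000 in ES and 1.61 and 0.488 in MEF, and the groups overlapped. The next bin outward, with the rest of Lpin1, held 1.24 and 0.953 in ES and 0.537 and 0.522 in MEF. There the groups did not overlap (limma adjusted p = 0.451). The bin of Matn3, a cartilage matrix protein, held 1.18 and 1.98 in ES and 0.477 and 0.791 in MEF (limma adjusted p = 0.202). The bin of Rhob, a small GTPase, held 0.477 and 0.330 in ES and 1.37 and 0.724 in MEF (0.345). Kcns3, Trib2, Greb1, Odc1 and the others also gave no call in the main limma fit. Of the 22 bins edgeR called 1 without TMM and 3 with TMM, against 4 of the 70 at 1 to 5 Mb with TMM. DESeq2 called 2 of the 7 bins to which it gave an adjusted p.

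Lists of genes that mark either cell type were read over the whole chromosome. As a background, 202 of the 1063 far bins of 100 kb (19.0%) held a listed window of the non-overlapping set. The 1063 bins run out to the farthest window of that set on each side. Bins without one may hold listed windows at other 1 kb steps, which were not looked up. Of 17 genes of ES cells and the early embryo, 2 lay in a bin with a listed window of that set. They were Dnmt3a, a DNA methyltransferase, and Zfp36l1, an RNA-binding protein, and neither bin reached the level to be tested. The bins of Esrrb, Sox11, Max, Yy1 and the rest had none of that set. Of 15 genes of mesenchyme and fibroblasts, 3 lay in such bins (Osr1, Rhob and Adam17), 2 of these were tested, and 0 were called by limma or edgeR, also at an unadjusted p, with a median log2 difference of -0.73. Twist1, Meox2, Id2 and Tgfb3 had no listed window of the non-overlapping set in their bins. This says only that fewer than 3 libraries had counts in each of the non-overlapping windows there.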

How the data were processed

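The deposited table holds CPM by name, 1 column per library, made by the authors. Per the submitters' processing notes, Bowtie 1.0.0, edgeR and mm10 were used, in roles not given in the sources used here. Per the labels' protocols, DpnII and then Csp6I were used to cut the fixed chromatin, each followed by ligation. All values (100% in each library, within 0.01 count) were whole multiples of 1 step, and 1000 divided by the step was a whole number, so the CPM values are read as counts per 1000 of that total. This scale comes from the values and is not stated.

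Windows aligned to the one centred on the viewpoint were summed in bins and compared with limma 3.58.1 in R 4.3.3 (eBayes with an intensity trend, two-sided) on log2(value + 0.1). This scale understates the change of low values. Bins with a mean of at least 0.2 were tested, with Benjamini-Hochberg adjustment over the chromosome at 0.05. limma called 2 bins of 100 kb beyond 1 Mb. The recovered counts were tested with edgeR 4.0.16, which called 2 as well (4 with TMM), and DESeq2 1.42.0, which called 2. Code was tested on simulated data. Genes come from the RefSeq table of GRCm38.p6. Named bins were the called bins without overlap of the groups, the recurrent bins and the highest 1 Mb bin of each side and distance class. The genes that overlap them most and 3 gene lists were named with them, and any other bin named was chosen after its values were seen. Members, lists and rules were chosen with earlier results of these data known. Replicates differed by more than sampling noise (chi-square over degrees of freedom of 5.35 in ES and 5.70 in MEF). Same-numbered libraries did not deviate together (correlation of -0.039 over 124 bins), so numbers were not used as pairs.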

Additional observations from a re-analysis of the deposited data

How the results depend on the processing

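Each library limits these results, since each cell type has 2. The count of 2 called 100 kb bins beyond 1 Mb became 0 without limma's trend, 1 after quantile normalization, 1 with the replicate block, 4 with edgeR and TMM, 5 as the mean of all 10 tilings and 5 after centring on the median. It ranged from 1 to 9 when 1 library was left out, where the lone library of a cell type is assumed to vary like the other pair. The replicate block ended the call at 13896001 (limma adjusted p = 0.108) and not the call at 11286001 (0.0390), and the numbers do not pair the libraries. The count of 0 called 1 Mb bins became 1 with a filter at 0.5, with windows shifted by 5 kb and with counts thinned to the shallowest total, and 2 after quantile normalization, and stayed 0 with any 1 library left out. The recurrent bins, 2, became 4 over all tilings and 7 at the top 20%, both chosen after seeing the data. The median log2 difference over tested bins moved by 0.31 with TMM, 0.29 with DESeq2 and 0.27 with quantile normalization. The differences ES minus MEF of the shares turned without MEF replicate 1, to 0.093 (beyond 1 Mb), 0.0026 (1 to 5 Mb), 0.090 (beyond 5 Mb) and 0.75 (part beyond 5 Mb), in percentage points. Over all single libraries left out they ranged from -1.48 to 0.093, -0.73 to 0.0026, -0.75 to 0.090 and -4.45 to 0.75, the lower-side part from 0.74 to 6.99 and the gene-rich log2 ratio from 0.35 to 0.43. Windows shifted by 5 kb turned the 1 to 5 Mb share to 0.042 (two-sided exact permutation test, p = 1), and windows with counts in all 4 libraries the gene-rich log2 ratio to -0.26, which was 0.91 with 100 kb bins and 0.73 with bins of middling gene number left out. The log2 differences kept their sign with each library left out, at 0.81 to 0.97 (11286001), 0.71 to 0.87 (11186001) and -2.05 to -1.32 (13896001). The causes were not tested.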
